A study of Rattus norvegicus with 6 samples.

Results

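The comparison described here sets the infarct border of aged rats against that of young rats 3 d after a stroke. The aged pool held RNA of 23 male Sprague-Dawley rats of 19 to 20 months (520 to 600 g), and the young pool that of 19 rats of 3 to 4 months (290 to 360 g). In both, a hook had raised the middle cerebral artery to stop its flow temporarily, and the labels give no other treatment. These are 2 of the 6 arrays of the series. The other 4 hold pooled border tissue of rats of the same ages and weights at 14 d (23 aged, 19 young) and pooled healthy brain, region not named by sample, of naive rats without a stroke (15 aged rats of 18 to 20 months, 15 young rats of 3 to 5 months). Each gene was represented by its probe set with the highest mean over the 6 arrays, and every value below is a log2 value or a log2 difference, aged minus young. With 1 pooled array per group there is no replicate and no test, the spread between animals cannot be seen, and each difference is that of 2 pools. The ages also differ in body weight, which cannot be told apart from age in this design.

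In the days after an infarct, microglia and blood-borne myeloid cells clear dead tissue, astrocytes around the lesion turn reactive, and vascular and meningeal fibroblasts begin to lay down matrix. Dividing microglia, endothelial cells and precursors make this the main proliferative phase. Genes of mitosis, phagocytosis, antigen presentation and collagen assembly are therefore commonly used to follow it. Aged brain tissue is known for microglia that already carry more antigen presentation molecules before any injury.

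Brain tissue was recognisable on both arrays. Snap25 (a synaptic membrane fusion protein) stood at 12.42 in aged and 12.18 in young rats at 3 d, Slc17a7 (the vesicular glutamate transporter of cortical neurons) at 11.59 and 11.90, Mbp (myelin basic protein) at 11.99 and 11.86, and Gfap (the astrocyte filament) at 12.41 and 12.23. The medians over all 28826 probe sets were 7.14 and 7.13. The young array was the more widely spread, with quartiles of 5.57 and 8.67, against 5.67 and 8.61 on the aged array. Of 14497 genes, 10947 reached the 40th percentile of an array on at least 1 of the 6 and were kept.

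Aged and young border tissue were close to each other at 3 d. Of the kept genes, 98.4% differed by under 1.5-fold, and the median difference was -0.06. Of all kept genes 6836 (62.4%) lay below 0, the share against which the counts below 0 in the lists further on are to be read. Only 3 genes (0.0274%) were at least 2-fold higher in aged rats and 11 (0.100%) at least 2-fold lower. At 1.5-fold the counts were 50 higher (0.457%) and 120 lower (1.10%), and at 3-fold 0 higher and 2 lower (0.0183%). The pairs of naive and of 14 d arrays, which share no array with this one, gave 18 higher (0.164%) and 0 lower in naive tissue, and 114 higher (1.04%) and 5 lower (0.0457%) at 14 d. At 1.5-fold 0.612% were higher and 0.119% lower in naive tissue, and 5.76% and 1.82% at 14 d. The standard deviation of the differences over genes was 0.173 in naive tissue, 0.220 at 3 d and 0.336 at 14 d. Whether these pairs differ more than repeat pools would was not tested. Across the 10947 genes the age difference at 3 d had a Pearson correlation of 0.016 with that in naive tissue and of 0.274 with that at 14 d, given as a description, since genes of an array share its pool and hybridisation. Of the 120 genes at least 1.5-fold lower at 3 d, 45 lay in the lowest sixth by mean level and 4 in the highest. Of the 50 higher genes, 13 and 9 did. The standard deviations of the 3 d differences in these sixths were 0.274 and 0.170.

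**Figure D1:**
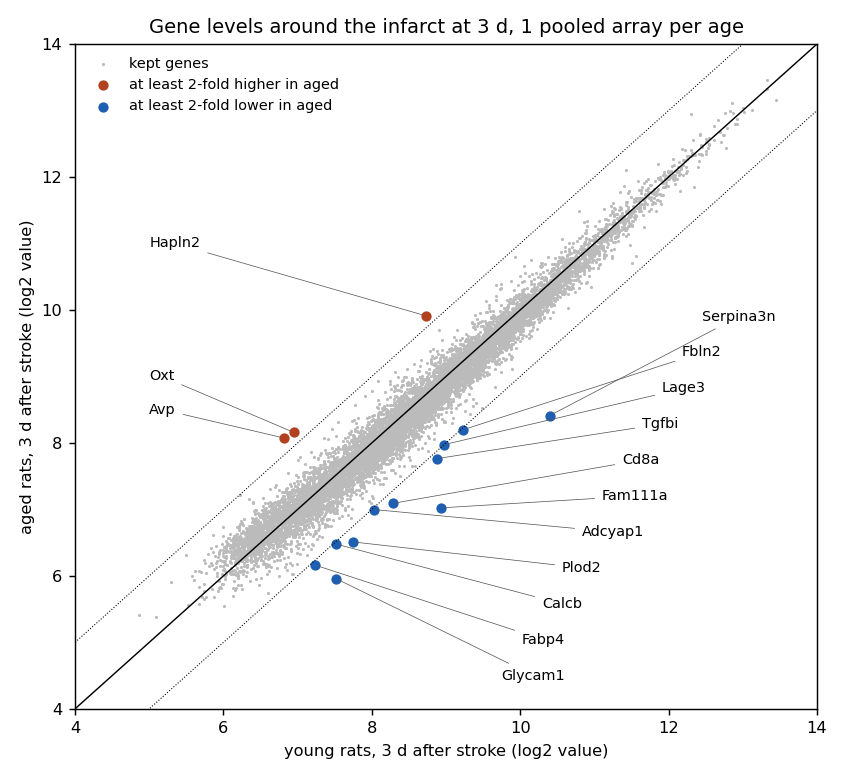
Log2 value of each kept gene around the infarct at 3 d, aged rats (vertical axis) against young rats (horizontal axis), 1 pooled array per age. The solid line marks equal values and the dotted lines a 2-fold difference; 3 genes lie above the upper dotted line and 11 below the lower one.

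**Figure D2:**
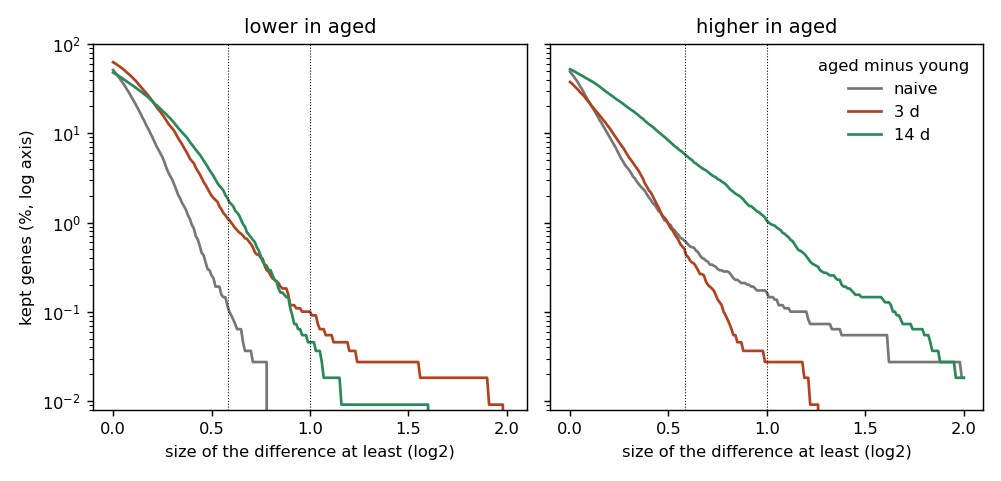
Share of kept genes (log axis, %) whose aged minus young difference reaches at least the size on the horizontal axis, lower in aged on the left and higher in aged on the right, for naive tissue, 3 d and 14 d. Dotted lines mark 1.5-fold and 2-fold; at 2-fold the share higher in aged is 0.164% in naive tissue, 0.0274% at 3 d and 1.04% at 14 d.

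The lowest gene in aged rats was Serpina3n, a serine protease inhibitor secreted by reactive astrocytes. It stood at 8.41 in aged and 10.40 in young rats, a difference of -1.99 or 3.96-fold lower. Its naive values were 5.94 in aged and 6.16 in young rats, so the 3 d arrays of both ages lay well above their naive arrays and the aged one less so. At 14 d Serpina3n stood at 6.39 in aged and 7.13 in young rats. Fam111a, a protease that binds the replication clamp PCNA, stood at 7.02 in aged and 8.93 in young rats at 3 d, a difference of -1.90. On the naive and 14 d arrays it lay between 6.05 and 6.27, so both 3 d arrays were above them, the young one by more. Glycam1, a mucin-like ligand of L-selectin, stood at 5.96 in aged and 7.51 in young rats at 3 d (-1.55), but at 7.54 in aged and 6.39 in young rats at 14 d. The order of the ages was thus opposite at the later time.

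The other 8 genes at least 2-fold lower in aged rats fell into several roles. Plod2, a lysyl hydroxylase of collagen, stood at 6.51 in aged and 7.74 in young rats (-1.23), and 6.39 and 6.17 in naive tissue. Tgfbi, a matrix protein induced by TGF-beta, stood at 7.76 and 8.88 (-1.11), and Fbln2, the matrix protein fibulin-2, at 8.20 and 9.23 (-1.03). Cd8a, a co-receptor of cytotoxic T cells that some rat myeloid cells also carry, stood at 7.09 in aged and 8.28 in young rats (-1.19). Its partner chain Cd8b, named after its value was seen, stood at 6.86 and 7.39. Both were higher in aged rats at 14 d, Cd8a by 0.59 and Cd8b by 1.35. Fabp4, a fatty acid carrier of macrophages, fat cells and capillaries, stood at 6.16 and 7.24 (-1.08). On the other arrays Fabp4 lay between 5.25 and 5.44, so it was high at 3 d alone, and more so in young rats.

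The remaining 3 were Calcb, Adcyap1 and Lage3. Calcb, which encodes the beta form of the vasodilator peptide CGRP, stood at 6.48 in aged and 7.52 in young rats at 3 d (-1.04). Its relative Calca, which gives calcitonin and the alpha form of CGRP, behaved alike, at 7.17 in aged and 8.02 in young rats (-0.85). Both CGRP genes lay between 5.63 and 6.09 on the naive and 14 d arrays. Adcyap1, the precursor of the neuropeptide PACAP, stood at 7.00 in aged and 8.03 in young rats at 3 d, against 8.29 and 8.41 in naive tissue, and remained apart at 14 d (7.02 in aged and 7.86 in young rats). Lage3, a subunit of a tRNA-modifying complex, stood at 7.98 and 8.98, which only just reached 2-fold. Just short of 2-fold were Ptgs2 (-0.96), the inducible cyclooxygenase COX-2, and Mmp9 (-0.92), a gelatinase of neutrophils and vessels. The aged values of Glycam1, Plod2, Fabp4 and Calcb lay below the 40th percentile of the aged 3 d array (6.57), so the size of their differences is uncertain. Fabp4 and Calcb reached the 40th percentile on the young 3 d array alone, so they were kept only through the array where they were high. Glycam1 and Plod2 reached it at 14 d as well.

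**Figure D3:**
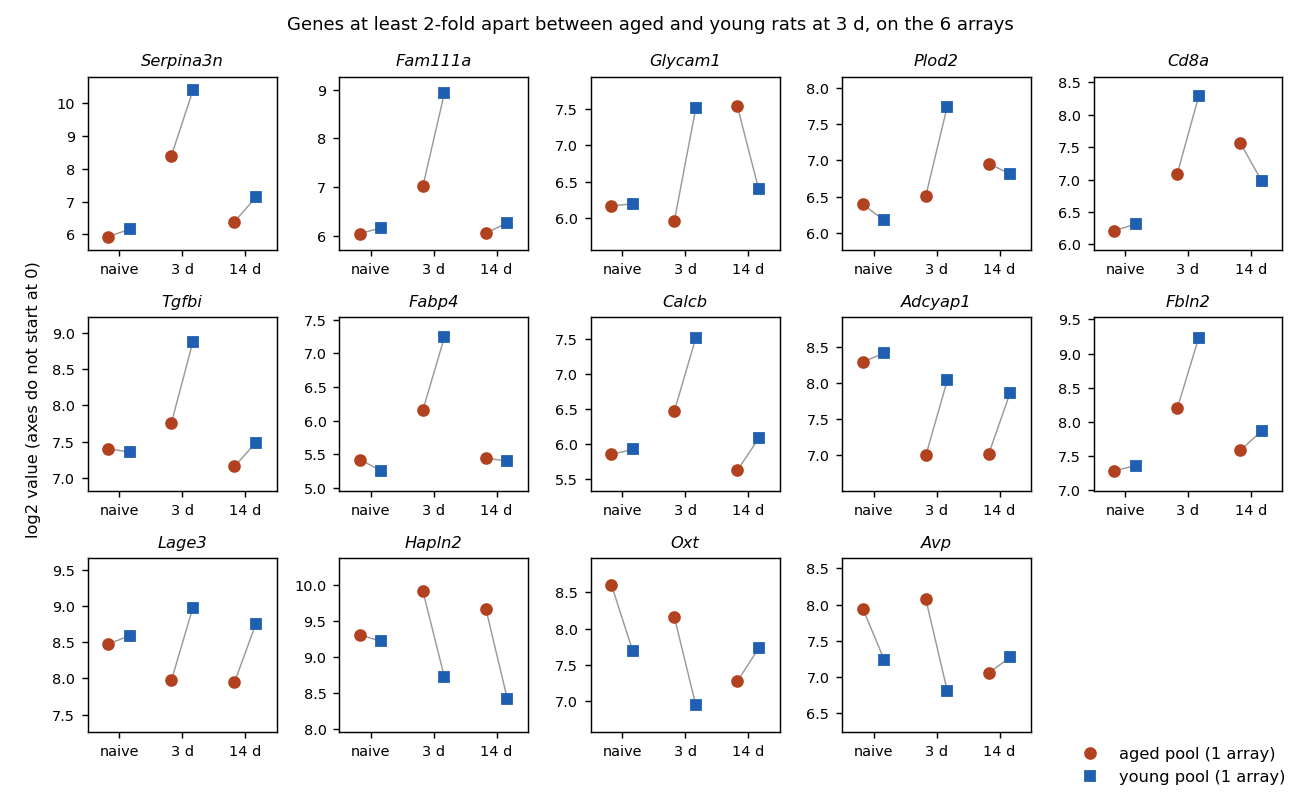
Log2 values of the 14 genes at least 2-fold apart at 3 d on all 6 arrays, aged pool (circle) left of young pool (square) at each time; vertical axes differ between panels and do not start at 0. Serpina3n, Fam111a, Plod2, Fabp4 and Calcb stand apart mostly at 3 d, whereas Oxt and Avp are also higher in aged naive tissue and Hapln2 also at 14 d.

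The 20 lowest genes also included others of matrix, vessel walls and peptide signalling. Lox, the enzyme that cross-links collagen and elastin, stood at 7.10 in aged and 7.98 in young rats (-0.89), Des, the filament desmin of pericytes and muscle, at 7.87 and 8.76 (-0.89), and Frzb, a secreted Wnt antagonist, at 7.65 and 8.54 (-0.89). Trh, the precursor of thyrotropin-releasing hormone, stood at 7.50 and 8.39 at 3 d but at 7.72 in aged and 6.68 in young rats at 14 d. Kl, the anti-ageing factor klotho of the choroid plexus, stood at 6.88 and 7.72, and the locus 6330403K07Rikl at 8.43 and 9.32. At 14 d, 3 of the 20 lowest genes were still at least 1.5-fold lower in aged rats, against 1.82% of all kept genes. Another 3 were at least 1.5-fold higher there, against 5.76% of all kept genes.

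Only Avp, Oxt and Hapln2 were at least 2-fold higher in aged rats. Avp (vasopressin) stood at 8.07 in aged and 6.81 in young rats at 3 d (1.26), and Oxt (oxytocin) at 8.16 and 6.94 (1.22). Both are hormones of hypothalamic neurons. They were also higher in aged naive tissue, at 7.94 against 7.24 in young rats for Avp and 8.61 against 7.69 for Oxt, and slightly lower in aged rats at 14 d (-0.22 and -0.46). In a list of hypothalamic genes written after these values were seen, which holds both, 10 of 13 kept members were above 0 at 3 d, while Trh, also a member, was lower (-0.89). Its median was 0.18 in naive tissue, 0.18 at 3 d and -0.26 at 14 d. Since Avp and Oxt prompted the list, its counts do not support them. The mean level of that list was 7.11 in aged and 6.87 in young rats. How much hypothalamus the microdissected tissue held was not measured, and its part in these values was not tested. Hapln2, a link protein of the nodes of myelinated axons, stood at 9.91 in aged and 8.73 in young rats at 3 d (1.18) and at 9.66 and 8.42 at 14 d (1.24), but at 9.31 and 9.22 in naive tissue. The other 22 kept myelin and oligodendrocyte genes lay within 1.5-fold, and the list median was 0.08.

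Further genes higher in aged rats had immune roles. Lcn2, the iron-carrier binding protein lipocalin-2 of astrocytes and neutrophils, stood at 10.80 in aged and 9.92 in young rats (0.87), the opposite of Serpina3n, which is counted among the same reactive astrocyte genes. Zfp36, the mRNA decay factor tristetraprolin, stood at 9.70 and 8.91 (0.79), Clec12a, an inhibitory receptor of myeloid cells, at 9.07 and 8.31 (0.75), and Cxcl10, a chemokine induced by interferon, at 8.31 and 7.54 (0.77). All 4 were higher in aged rats at 14 d too, by 0.89, 1.48, 1.62 and 0.84, and their age differences in naive tissue were between -0.17 and 0.27.

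Other genes of the 20 highest belong to the nucleus and to RNA or DNA processing. Nmnat1, the nuclear enzyme of NAD synthesis, stood at 8.93 in aged and 8.09 in young rats (0.84), Mutyh, a DNA glycosylase, at 7.75 and 7.01 (0.74), Kmt5c, a histone H4 methyltransferase, at 8.07 and 7.35 (0.72), Clk1, a kinase of splicing factors, at 10.37 and 9.67 (0.70), and the long noncoding RNA Meg3 at 11.49 and 10.80 (0.70). Vwa5b2 (0.80) and Eml5 (0.77) were also among them, but their second probe sets gave 0.44 and 0.19. In a list of nucleus-held transcripts and splicing regulators, written after these values were seen and holding Meg3, Clk1 and Leng8, 14 of 15 members were above 0 at 3 d, with a median of 0.27, against -0.06 over all genes. The medians of this list were -0.10 in naive tissue and 0.47 at 14 d. Such transcripts vary with RNA preparation as well as with cell state, no measure of RNA quality was given, and its part in these differences was not tested. Of the 20 highest genes, 15 were at least 1.5-fold higher in aged rats at 14 d as well, where 5.76% of all kept genes were. Over the whole set, 29 (58%) of the 50 genes at least 1.5-fold higher in aged rats at 3 d were so at 14 d and 2 (4%) in naive tissue. Of the 120 lower genes, 16 (13.3%) were lower at 14 d, where 1.82% of all were, 11 were at least 1.5-fold higher there, and 0 were lower in naive tissue.

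Matrix genes had the lowest median of the 53 gene lists described here. Of 37 kept genes of collagens and fibrous matrix, 9 were at least 1.5-fold lower in aged rats, 0 were at least 1.5-fold higher, and 28 lay below 0. Over all kept genes 1.10% were lower by that much. The list median was -0.34, against -0.06 over all genes. After Tgfbi, Fbln2 and Lox came Postn (periostin, a matrix protein of fibroblasts), at 8.0 in aged and 8.72 in young rats. It stood at 5.55 in aged and 6.02 in young naive rats. Both naive values lay below the 40th percentiles of their arrays (6.56 and 6.55), so that naive difference is uncertain. The other 5 were Fbn1, Loxl2, Lum, Thbs1 and Fbln5, between -0.69 and -0.60, of which Fbn1, Loxl2 and Fbln5 were named after their values were seen. The fibrillar collagens Col1a1 (8.73 and 9.30) and Col1a2 (8.52 and 9.07) fell just short of 1.5-fold. At 14 d the list median was -0.10, with Col1a1 at 10.20 in aged and 10.37 in young rats, so both ages stood higher than at 3 d and closer together. Of 24 metalloproteinase and inhibitor genes only Mmp9 was at least 1.5-fold lower, with 20 of 24 below 0.

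Markers of the cells that make matrix and vessel walls were lower by less. Of 17 pericyte and smooth muscle genes 12 were below 0, with a median of -0.19, but only 10 lay below the median of all genes. Des and Notch3, a receptor of mural cells (7.79 in aged and 8.49 in young rats), were at least 1.5-fold lower. Meningeal genes had a median of -0.20, with 23 of 27 below 0, led by Crabp2, a retinoic acid carrier, at 6.41 and 7.18, and Lum, the collagen-binding proteoglycan lumican, at 7.24 and 7.87. Endothelial genes had a median of -0.15 with 0 of 29 past 1.5-fold. The mean level of the pericyte list was 8.51 in aged and 8.72 in young rats, and that of the meningeal list 8.42 and 8.61. In bulk tissue fewer cells of a type and less RNA per cell cannot be told apart, here and in every list below.

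Mitosis genes were mostly lower in aged rats. Of 41 kept genes 36 lay below 0 and 34 below the median of all genes. The list median was -0.33, 6 were at least 1.5-fold lower and 0 higher. Ccnb1, the cyclin that starts mitosis, stood at 7.92 in aged and 8.68 in young rats (-0.76). Bub1b, a kinase of the spindle checkpoint, stood at 6.55 and 7.26 (-0.71), Pbk, a mitotic kinase, at 7.59 and 8.29 (-0.70), and Kif23, a motor of cytokinesis, at 7.06 and 7.68 (-0.62). Ndc80 (-0.62), a kinetochore protein, and Ccnb2 (-0.59) were named after their values were seen. Both ages were far above naive tissue, where the mean level of the list was 5.87 in aged and 5.92 in young rats, against 7.68 and 7.97 at 3 d. Of the strongest mitotic genes, Top2a, a DNA topoisomerase, stood at 9.36 and 9.57, and Pttg1 (securin) was nearly level at 9.43 and 9.45. Aurkb (0.20) and Cdca3 (0.37) lay above 0. Of 37 DNA replication genes 27 were below 0 and 26 below the median of all genes, with a median of -0.21 and 0 past 1.5-fold, the lowest being Rfc4 at -0.56. At 14 d the medians of the mitosis and replication lists were 0.13 and 0.00.

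Promoter sequence is shown for the 3 mitosis genes with the lowest differences that have an entry in the RefSeq promoter table of build GRCr8, since mitotic genes are known to share promoter elements. Each stretch, written 5′ to 3′ on the gene's strand, runs from 130 bases before the transcript start to 50 after it. Capitals mark CCAAT, the box bound by NF-Y, and TTTGAA, the core of the cell cycle homology element, each searched on both strands.
Ccnb1, chr2:33655176-33655355, - strand: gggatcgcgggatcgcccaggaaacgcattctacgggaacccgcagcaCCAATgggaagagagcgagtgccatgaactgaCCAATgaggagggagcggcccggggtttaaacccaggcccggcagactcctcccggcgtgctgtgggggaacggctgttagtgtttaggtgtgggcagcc
Bub1b, chr3:126016937-126017116, + strand: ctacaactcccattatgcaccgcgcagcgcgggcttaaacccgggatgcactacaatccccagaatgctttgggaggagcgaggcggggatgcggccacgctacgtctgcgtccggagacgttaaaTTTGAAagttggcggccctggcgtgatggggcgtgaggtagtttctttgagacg
Kif23, chr8:71320535-71320714, - strand: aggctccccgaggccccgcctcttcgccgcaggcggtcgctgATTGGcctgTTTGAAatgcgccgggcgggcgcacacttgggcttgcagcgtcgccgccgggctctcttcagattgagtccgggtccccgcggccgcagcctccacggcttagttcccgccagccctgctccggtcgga
Ccnb1 holds CCAAT 2 times and no TTTGAA in this window, Bub1b holds TTTGAA 1 time, and Kif23 holds both, 1 time each. Of 36 mitosis genes with an entry, 23 hold CCAAT and 23 hold TTTGAA in the same window, against 25.6% and 10.1% of all 33469 promoters. A match says that the letters are there and not that a factor binds.

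Class II genes of the major histocompatibility complex, called RT1 in the rat, included 5 that were lower in aged rats at 3 d but higher in naive tissue and at 14 d. They present peptides to CD4 T cells and are carried by microglia and macrophages after injury. In naive tissue RT1-Da, an alpha chain of the D pair, stood at 8.01 in aged and 6.40 in young rats. At 3 d it stood at 8.84 in aged and 9.66 in young rats (-0.82), and at 14 d at 10.43 and 9.31 (1.12). RT1-Ba, an alpha chain of the B pair, stood at 7.76 and 6.55 in naive tissue, 8.62 and 9.26 at 3 d (-0.64), and 9.65 and 8.88 at 14 d (0.78). Cd74, the invariant chain that guards the peptide groove, stood at 10.36 and 8.37 in naive tissue, 11.25 and 11.67 at 3 d (-0.42), and 12.58 and 11.78 at 14 d (0.80). The young pool was thus the lower one in naive tissue and at 14 d and the higher one at 3 d.

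RT1-Db1 and RT1-Bb, the partner beta chains, were named after their values were seen. RT1-Db1 stood at 6.02 in aged and 6.92 in young rats at 3 d (-0.90), with differences of 0.50 in naive tissue and 0.58 at 14 d. Its aged 3 d value lay below the 40th percentile of that array (6.57). So did its naive values (6.02 in aged and 5.52 in young rats, against 6.56 and 6.55). Its young 14 d value did too (6.45, against 6.62). The size of the RT1-Db1 differences is therefore uncertain. RT1-Bb stood at 8.57 and 8.82 at 3 d (-0.25), with differences of 0.46 and 0.92. The other kept genes of the list did not follow these 5. RT1-DMa and RT1-DMb, which load peptides, stood at 11.80 and 11.60, and at 10.30 and 10.04. Ctss, the protease cathepsin S that cuts the invariant chain, stood at 11.50 and 11.32. RT1-DOb (0.31) and RT1-DOa (0.04) were also above 0. Over the 10 kept genes 3 were at least 1.5-fold lower and 0 higher at 3 d. The list medians were 0.45 in naive tissue, -0.10 at 3 d and 0.60 at 14 d. RT1 genes have near-identical relatives that may share probes, so single values are uncertain.

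**Figure D4:**
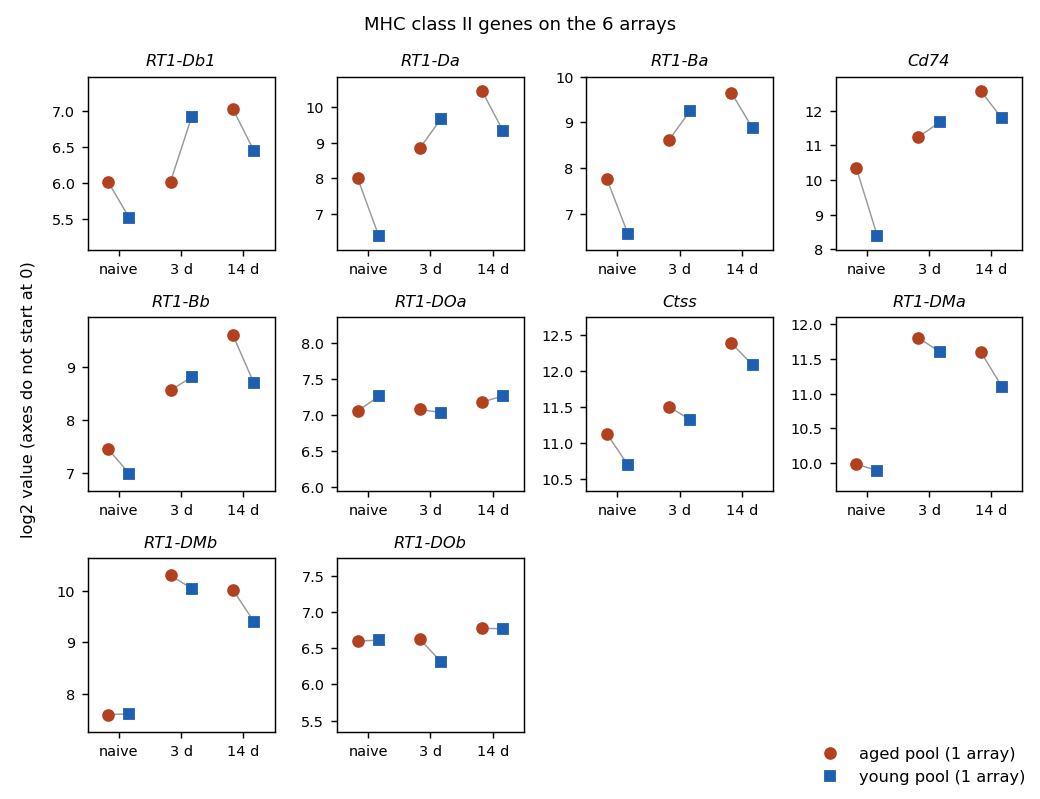
Log2 values of the 10 kept MHC class II genes on the 6 arrays, aged pool (circle) left of young pool (square) at each time; vertical axes differ between panels and do not start at 0. RT1-Db1, RT1-Da, RT1-Ba, Cd74 and RT1-Bb are higher in aged rats in naive tissue and at 14 d and lower in aged rats at 3 d, while RT1-DMa and RT1-DMb are higher in aged rats at 3 d and 14 d.

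The promoters of the 3 lowest class II genes are shown because class II genes are known to be controlled together through an X box and a Y box. The windows and build are those given above. Capitals mark 3 motifs, each searched on both strands. The Y box core is CCAAT, which appears reversed and complemented where it lies on the other strand. The letters AGCAAC are part of the X box. The palindrome TGACGTCA is a cyclic AMP response element, of which the X box region can hold a variant.
RT1-Db1, chr20:4560113-4560292, - strand: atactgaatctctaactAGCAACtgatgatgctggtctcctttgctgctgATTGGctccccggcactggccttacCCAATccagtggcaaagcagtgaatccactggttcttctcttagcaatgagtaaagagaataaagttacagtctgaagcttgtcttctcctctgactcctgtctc
RT1-Da, chr20:4515285-4515464, + strand: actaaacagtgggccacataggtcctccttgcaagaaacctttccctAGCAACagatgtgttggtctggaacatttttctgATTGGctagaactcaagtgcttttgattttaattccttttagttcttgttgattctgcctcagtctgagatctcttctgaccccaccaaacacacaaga
RT1-Ba, chr20:4576927-4577106, + strand: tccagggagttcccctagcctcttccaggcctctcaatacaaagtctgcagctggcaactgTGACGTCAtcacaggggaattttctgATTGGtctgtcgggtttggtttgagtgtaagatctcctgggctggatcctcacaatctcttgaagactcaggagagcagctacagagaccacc
RT1-Db1 and RT1-Da hold the X box letters upstream of a Y box core, and RT1-Ba holds the palindrome upstream of one. The Y box core occurs in 8 of 9 class II genes with an entry, the X box letters in 4 of 9 and the palindrome in 1 of 9. Of all 33469 promoters, 25.6%, 9.38% and 1.49% hold them. RT1-DMa and RT1-DMb, whose values went the other way, are counted in this list.

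Genes of monocytes and macrophages were mostly lower in aged rats, whereas microglial genes were not. Of 21 kept monocyte and macrophage genes 17 lay below 0, with a median of -0.29, and 4 were at least 1.5-fold lower. These were Mrc1, the mannose receptor of perivascular macrophages (8.06 in aged and 8.84 in young rats), Clec10a, a galactose-type lectin (7.27 and 7.91), Thbs1, thrombospondin-1 (8.52 and 9.14), and Itga4, an integrin for entry from blood (6.63 and 7.21). Ccr2, the receptor that draws monocytes to chemokine, stood at 6.93 and 7.27. Of 17 resting microglia genes 14 lay above 0, with a median of 0.10, and Selplg, a selectin ligand, stood at 10.13 in aged and 9.53 in young rats (0.60). The microglial medians were 0.26 in naive tissue and 0.45 at 14 d. The mean level of the monocyte list was 8.65 in aged and 8.92 in young rats at 3 d, and that of the microglia list 9.75 and 9.60. Part of the monocyte list (Fn1, Vcan, Thbs1) is also matrix. Since Mrc1 is a receptor of perivascular macrophages, the list does not separate cells that came from blood from resident ones.

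Lipid-laden phagocyte genes were level, with a median of 0.01 over 25 genes and mean levels of 10.24 in aged and 10.31 in young rats. The exceptions past 1.5-fold were Fabp4 and Lpl, lipoprotein lipase (7.39 and 8.15). Of 9 kept neutrophil genes Mmp9 was lower and Lcn2 higher by over 1.5-fold, both of which other cells also express. Of 15 kept T and natural killer cell genes Cd8a was the only one past 1.5-fold. Most of that list lay low, with 2 of 15 above the array median in aged and 4 in young rats. Among CC chemokines, Ccl6, a chemokine of myeloid cells, stood at 7.20 in aged and 8.0 in young rats at 3 d (-0.80) but at 8.76 and 7.13 at 14 d.

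Interferon genes differed by small amounts at 3 d, but most lay above the median of all genes. Of 36 kept interferon effectors 0 were past 1.5-fold in either direction, and the median was 0.10, against 0.18 in naive tissue and 0.45 at 14 d. At 3 d 22 of these 36 lay above 0 and 30 above the median of all genes (-0.06). Their mean level was 7.86 in aged and 7.79 in young rats at 3 d, and 6.82 and 6.66 in naive tissue. Of 11 kept genes switched on by interferon gamma, 7 lay above the median of all genes. Of these 11, 1 (Cxcl10) was at least 1.5-fold higher in aged rats and 0 lower. The 18 class I and peptide loading genes had a median of 0.13, and 15 lay above the median of all genes. Among them Tap2, a subunit of the peptide pump, stood at 7.77 in aged and 7.27 in young rats. Irf3, a transcription factor that switches on interferon, stood at 8.33 in aged and 7.73 in young rats (0.60) and was also higher at 14 d (1.31). Complement genes had a median of -0.04, with C7, a part of the membrane attack complex, at 6.76 and 7.36 as the only one of 18 past 1.5-fold.

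Reactive astrocyte genes lay on both sides of 0. Of 28 kept genes Serpina3n and Ptgs2 were at least 1.5-fold lower and Lcn2 and Cxcl10 at least 1.5-fold higher, 12 lay above 0 and 16 below, and the median was -0.04. Ptgs2 stood at 8.52 in aged and 9.48 in young rats, against 8.65 and 8.58 in naive tissue, so that only the young 3 d array lay above its naive array. Gfap differed by 0.18 at 3 d and by more in naive tissue, where it stood at 10.96 in aged and 9.96 in young rats. Mt1, the metal-binding protein metallothionein-1, stood at 12.95 and 12.29 at 3 d (0.65), and its second probe set gave 0.62.

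**Figure D5:**
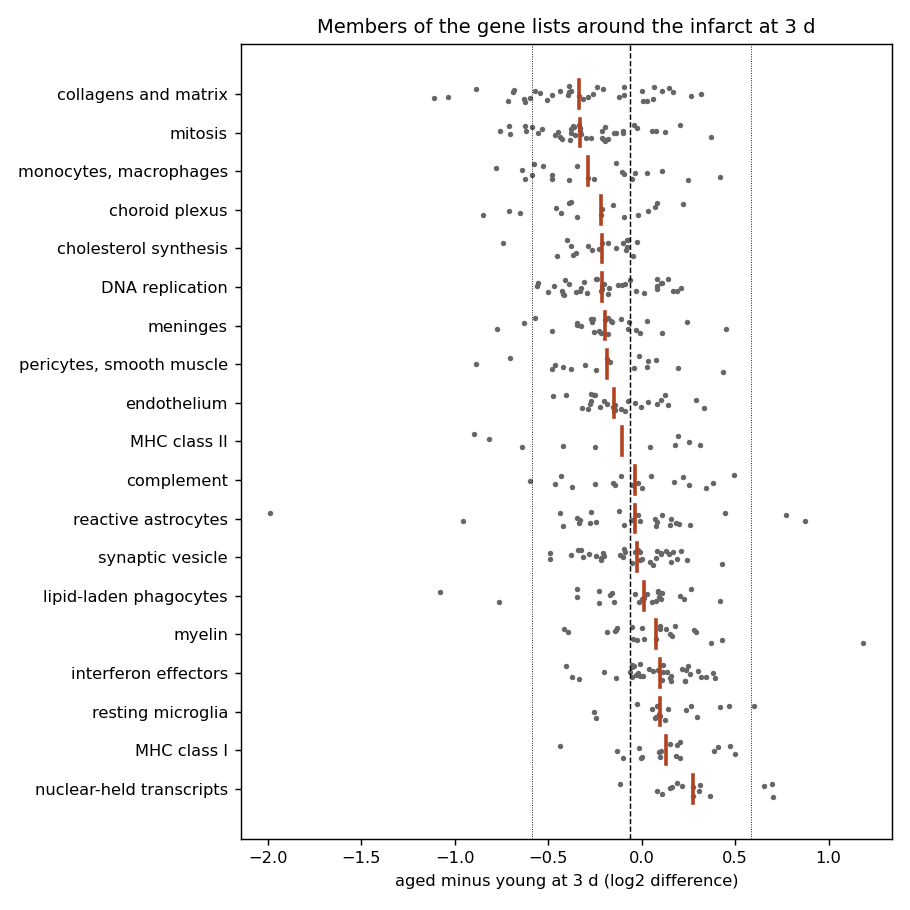
Aged minus young log2 difference at 3 d for each kept member (points) of 19 gene lists, with the list median (thick mark), the median of all kept genes (dashed line at -0.06) and 1.5-fold differences (dotted lines); points are spread vertically for legibility. Matrix and mitosis genes lie furthest to the left, with medians of -0.34 and -0.33, and the nucleus-held transcripts, a list written after the values were seen, furthest to the right with 0.27.

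Choroid plexus and sterol genes were mostly lower in aged rats. Of 17 kept choroid plexus genes 13 lay below 0 (median -0.22), with Kl, the chloride channel protein Clic6 (6.32 in aged and 7.03 in young rats, named after its value was seen) and the clotting factor F5 (-0.65, named likewise) past 1.5-fold. The aged values of Clic6 and F5 (6.34) lay below the 40th percentile of the aged 3 d array (6.57). The size of their differences is therefore uncertain. The most abundant marker, Ttr (transthyretin), was level at 11.34 and 11.27. In naive tissue the list median was 0.25. All 19 kept cholesterol synthesis genes lay below 0, with a median of -0.21, but only Idi1, an isoprenoid enzyme, was past 1.5-fold (6.59 and 7.33). Respiratory chain genes were closer to all genes, with a median of -0.12 and 32 of 52 below the median of all genes. Uqcrfs1, the iron-sulfur subunit of complex III, stood at 8.56 and 9.36 as the only one past 1.5-fold. Tfrc, the transferrin receptor that takes up iron, stood at 8.58 and 9.18.

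Neuronal lists differed in how far they lay from all genes. Synaptic vesicle genes had a median of -0.03 with 0 of 36 past 1.5-fold, potassium channels -0.07 with 0 of 43, and glutamate and GABA receptor subunits -0.11 with 0 of 32. Striatal genes had a median of -0.14 at 3 d, against -0.44 in naive tissue and -0.47 at 14 d. Of 26 kept, 2 were at least 1.5-fold lower and 1 higher. The lower ones were Adora2a, an adenosine receptor of striatal neurons (8.31 in aged and 8.98 in young rats), and Lrrc10b (7.75 and 8.51). The higher one was Isl1, named after its value was seen, at 6.43 and 5.84. Both Isl1 values lay below the 40th percentiles of their arrays (6.57 and 6.49). Interneuron genes had a median of -0.18, with Calb2, Calb1 and Kit of 22 at least 1.5-fold lower, and cortical glutamatergic genes -0.13, with Trh, Calb1 and Neurod6 of 20. Neurogenesis genes had a median of -0.17 with 0 of 17 past 1.5-fold. Calb1, the calcium buffer calbindin, stood at 8.33 and 8.97, and Neurod6, a transcription factor of cortical neurons, at 8.46 and 9.06. Calb2 (calretinin) stood at 6.0 in aged and 6.74 in young rats at 3 d, below or near the 40th percentiles (6.57 and 6.49), against 8.56 and 7.36 in naive tissue. Calb2 is also in a list of thalamic genes, whose median over 15 kept genes was 0.27 in naive tissue and -0.01 at 3 d. The naive arrays also set 2 monoamine genes apart. Th, which makes dopamine, stood at 8.98 in aged and 6.97 in young naive rats but at 6.47 and 6.60 at 3 d, and Tph1, a serotonin enzyme of the pineal gland, at 8.79 and 6.41 but at 5.81 and 5.84.

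Genes that stood high at 3 d in both ages together were also compared by age. Taking the mean of both ages, 656 genes stood at least 2-fold above naive tissue. Of these, 36 (5.49%) were at least 1.5-fold lower in aged rats and 6 (0.915%) higher, against 77 (0.752%) and 43 (0.420%) of 10245 genes within 2-fold of naive tissue. The median differences were -0.09 and -0.06. Of 46 genes at least 2-fold below naive tissue, 7 (15.2%) were at least 1.5-fold lower in aged rats and 1 (2.17%) higher. Their median difference was -0.18, so a larger share of lower genes was not particular to genes above naive tissue. The level against naive tissue and the age difference both use the 3 d arrays, so the counts are a description and no separate support.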

How the data were processed

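Microdissected rat brain RNA, pooled over animals, was amplified and run on Affymetrix whole-transcript arrays, 1 per group, per the labels. The deposited table holds a single value for each probe set of an array, treated here as log2 with the base inferred from the range. The submitters' processing notes name R 2.14.0 and affy. Background correction, normalization and build were not given in the sources used here. No scan date was known, so a batch cannot be told apart from a group.

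A symbol of 1 gene was found for 15209 of 28826 probe sets, against 306 with several genes and 13311 unnamed in this work; 15178 matched RefSeq genes of GRCr8, used for names. Differences were computed with pandas 2.3.3 in Python 3.11.15, with no model and no p-value, after a filter at the 40th percentile, and the script was tested on simulated data. The members and the 53 gene lists (1356 members matched by symbol, 25 by synonym, 194 unmatched) were chosen with earlier results of these data known, and 2 more lists once values had been seen. Among genes reaching the median of either 3 d array, the naming rule took the 20 highest and 20 lowest differences. From genes reaching that median it also took up to 4 members per list past 1.5-fold. It further took the 10 highest and 10 lowest shifts of the age difference from naive tissue to 3 d. For these shifts, reaching the median of either naive array was also enough. Locus-style names and olfactory, vomeronasal and taste receptors were left out. Genes named below 1.5-fold, other than Cd74, Th, Tph1 and the tissue markers, were chosen after their values were seen. The number of arrays limits the precision. Alternatives covered normalization, centring, filter, probe set, trend with level and fold.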

Additional observations from a re-analysis of the deposited data

Results flagged for a closer look

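Several named genes had an age difference at 3 d of at least 1.5-fold and one of at least 1.5-fold in the opposite direction in another pair of arrays. With 1 array per group none of these changes of direction was tested. Against naive tissue they were Calb2 (-0.74 at 3 d and 1.20 in naive tissue), RT1-Da (-0.82 and 1.61) and RT1-Ba (-0.64 and 1.21). Against 14 d they were Glycam1 (-1.55 at 3 d and 1.15 at 14 d), Cd8a (-1.19 and 0.59), Trh (-0.89 and 1.04), RT1-Da (-0.82 and 1.12), Ccl6 (-0.80 and 1.63), Clec10a (-0.64 and 0.63) and RT1-Ba (-0.64 and 0.78).

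Probe sets without a single gene symbol, which no comparison above uses, also differed. Of 7249 that reached the 40th percentile on an array, 68 were at least 2-fold apart at 3 d (51 higher and 17 lower in aged rats), against 18 in naive tissue and 228 at 14 d.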

How the results depend on the processing

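The 3 genes at least 2-fold higher and 11 lower were all called again with array medians centred and with the mean of a gene's probe sets, which added Leng8. With no filter 12 were lower. With quantile normalization or a loess trend on level removed, 8 of the 11 were lower, without Adcyap1, Fbln2 and Lage3. With a 60th percentile filter, or with both 3 d arrays at or above the 40th percentile, 7 were lower, without Calcb, Fabp4, Glycam1 and Plod2, since fewer genes were kept. The probe set with the lowest mean gave 5 higher and 14 lower. At 1.5-fold 50 were higher and 120 lower, and at 3-fold 0 and 2. The number of lists with a median at least 0.1 below that of all genes was 11, and 11 to 16 under the alternatives. Lists at least 0.1 above were not counted in this way. They included schlafen genes (0.38 above, 4 kept), Fc and inhibitory receptors of myeloid cells (0.21 above, 16 kept) and class I genes (0.19 above, 18 kept). Genes past 2-fold at 14 d numbered 119, and 93 to 127 under the alternatives. The T and natural killer cell list, 0.12 above all genes, lay 0.20 below (-0.20) with the stricter filter and at -0.012 with the trend removed; the cause was not tested. No gene past 1.5-fold that the naming rule took changed sign under these alternatives. No paired analysis was possible because each group is 1 array. Among the 14 genes at least 2-fold apart, low signal limits Glycam1, Fabp4 and Calcb most. Other named genes also had aged 3 d values below the 40th percentile of that array, among them RT1-Db1, Clic6, F5, Crabp2, Calb2 and Isl1.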

Other observations

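Other growth and cell state genes not described above also lay lower in aged rats at 3 d. Hgf, hepatocyte growth factor, stood at 6.90 in aged and 7.60 in young rats, Anxa1, the anti-inflammatory annexin A1, at 8.31 and 8.98, and Tubb6, a tubulin of growing cells, at 9.30 and 9.89. Gpr17, a receptor of committed oligodendrocyte precursors, stood at 8.57 and 9.17, and Kit, a receptor tyrosine kinase, at 6.85 and 7.48. In naive tissue Tubb6 was the only one of these 5 higher in aged rats (0.22). Immediate early genes, a readout of recent neuronal activity, had a median of -0.06 with 0 of 26 past 1.5-fold. The list of 53 kept ribosomal protein genes had a median of -0.10 with 0 past 1.5-fold. Rpl36a, a ribosomal protein gene outside that list, named after its value was seen, stood at 10.81 in aged and 11.55 in young rats (-0.74).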
